A study of Homo sapiens with 8 samples.

Results

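Transcripts of 10 growth arrest genes were examined in RNA-seq libraries of A673 cells: GADD45A, GADD45B, GADD45G, BTG1, BTG2, BTG3, TOB1, TOB2, SESN1 and SESN3. They are 10 of 65975 Ensembl gene identifiers in the FPKM table (fragments per length of transcript and per sequenced read of the library, so that levels of different genes can be compared). The genes were listed by symbol with results of this drug comparison already known, so they were selected on measured FPKM of the same 8 libraries. Where a symbol had several identifiers, the one kept was chosen by its FPKM averaged over these libraries. That applied to BTG3 alone, whose ENSG00000281484 was listed at 0 in every library, so ENSG00000154640 was used. The JIB-04 against vehicle values of the 10 genes are therefore given as a description and carry no p-value. A673 is an established cell line derived from Ewing Sarcoma, a cancer of bone and soft tissue, and every library comes from this line alone. It was treated for 36 hours with 2 μM JIB-04, an inhibitor of Jumonji-domain histone demethylases (4 libraries), or with vehicle, which was DMSO (4 libraries). The methods describe the treatment as done in quadruplicate for each group. Neither they nor the labels say outright that the replicates were separate cultures, so all errors and p-values here measure only the spread between these libraries.

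The 3 GADD45 proteins are small stress-inducible factors without enzymatic activity that bind other proteins, among them the kinase MAP3K4 upstream of p38 and JNK, the mitotic CDK1 and cyclin B1 pair, the CDK inhibitor p21 and the replication clamp PCNA. BTG and TOB proteins share an amino-terminal domain through which they bind the CCR4-NOT deadenylase, the complex that shortens poly(A) tails, and they slow entry into the cell cycle. Sestrins bind the GATOR2 complex and hold back mTORC1, the kinase complex that senses amino acids. Members of the set are known to be induced by DNA damage, the integrated stress response, NF-κB, TGF-β or FOXO factors.

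The promoters of the 4 strongest responders with an entry in the RefSeq promoter table (GRCh38.p14) are shown first, to let the sequences be set beside the values that follow. The table matched 9 of the 10 genes, with 12 promoters. Each run is 5′ to 3′ on the gene's own strand and ends before the transcript start, at chr19:2475877-2476121 (plus strand) for GADD45B, chr9:89604762-89605011 (plus) for GADD45G, chr12:92145898-92146096 (minus) for BTG1 and chr1:203305269-203305490 (plus) for BTG2. Capitals mark CCAAT (the NF-Y box), TATAAA (the TATA box), CACGTG (an E-box), TGATGNAA (the C/EBP-ATF composite element, bound by ATF4 and CHOP) and GTAAACA (a FOXO site), on either strand.
GADD45B promoter: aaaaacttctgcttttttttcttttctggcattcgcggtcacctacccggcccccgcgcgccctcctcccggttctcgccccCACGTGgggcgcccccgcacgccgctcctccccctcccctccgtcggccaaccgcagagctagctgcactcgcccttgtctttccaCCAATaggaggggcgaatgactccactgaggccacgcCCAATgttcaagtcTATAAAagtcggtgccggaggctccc
GADD45G promoter: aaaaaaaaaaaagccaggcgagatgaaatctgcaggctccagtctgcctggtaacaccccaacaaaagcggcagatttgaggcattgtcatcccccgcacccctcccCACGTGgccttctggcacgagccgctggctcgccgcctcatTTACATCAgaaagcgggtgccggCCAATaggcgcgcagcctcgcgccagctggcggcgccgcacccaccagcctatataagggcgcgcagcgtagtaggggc
BTG1 promoter: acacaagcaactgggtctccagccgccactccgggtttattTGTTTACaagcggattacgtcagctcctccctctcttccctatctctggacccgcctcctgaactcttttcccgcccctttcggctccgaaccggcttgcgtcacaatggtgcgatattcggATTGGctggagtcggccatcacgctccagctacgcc
BTG2 promoter: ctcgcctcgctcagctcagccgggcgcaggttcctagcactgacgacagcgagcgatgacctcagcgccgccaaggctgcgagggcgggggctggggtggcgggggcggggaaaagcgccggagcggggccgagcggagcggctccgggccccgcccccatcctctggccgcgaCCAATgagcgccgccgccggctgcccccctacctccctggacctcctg
The 4 promoters share a CCAAT box, which 32.0% of the 35116 promoters in the table also hold in the same 250 bases, and 7 of the 12 promoters of the gene set. The other 3 of these 7 are 2 promoters of SESN1, the gene that was lower with JIB-04, and 1 of TOB1, so the box does not set the strong responders apart. In GADD45B the box occurs at -82 and again at -45, counted from the RefSeq start, followed by TATAAA at -31. In GADD45G it lies at -79, behind a C/EBP-ATF composite at -102 that is read on the minus strand. GADD45B and GADD45G each hold CACGTG, at -168 and at -143, a motif of 6.34% of all promoters that was added after these sequences had been read. BTG1 also has TATAAA, at -33, in the 51 bases left out above because the GENCODE transcript begins before them, and this motif is in 10.7% of all promoters. The FOXO letters at -209 in BTG1 occur in 2.98%, and the composite element of GADD45G in 3.14%. The GC box GGGCGG was found in 8 of the 12 promoters and in 42.6% of the table, ACGTG (the hypoxia core, here always inside CACGTG) in 2 and 18.5%, the ETS letters CCGGAA in 1 (BTG3) and 14.5%, and the CRE half-site TGACG, also added later, in 4 and 21.2%. No match was found to the full CRE TGACGTCA (1.65% of the table), to AP-1 as TGACTCA or TGAGTCA (4.20%) or to the octamer ATTTGCAT (1.63%). A match is a string of letters and not evidence of binding.

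The GADD45 genes showed the widest differences of the set. GADD45A (ENSG00000116717, chr1:67685061-67688338, plus strand, 4 exons, GRCh38) had 546.7, 532.1, 510.4 and 518.2 FPKM in JIB-04 replicates 1 to 4, against 43.8, 39.9, 41.3 and 39.4 FPKM in vehicle. Every JIB-04 library lay above every vehicle library, at 12.8 times the vehicle mean (527 ± 16.0 against 41.1 ± 1.98 FPKM, SD, n = 4 each). On the log2(FPKM + 0.5) scale of the limma model, the fold change was 3.66 with a standard error of 0.05. In JIB-04-treated cells GADD45A was the most abundant of the 10 transcripts, above 97.9% of all genes tested on level.

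GADD45B (ENSG00000099860, chr19:2476122-2478259, plus strand, 4 exons), known for its induction by NF-κB and TGF-β, had 217.4, 235.7, 224.0 and 214.3 FPKM with JIB-04, against 11.4, 13.04, 12.3 and 12.01 FPKM with vehicle. The 2 groups were again far apart, with means of 223 ± 9.49 and 12.2 ± 0.680 FPKM, an 18.3-fold difference (log2 fold change 4.14, standard error 0.05). GADD45G (ENSG00000130222, chr9:89605013-89606555, plus strand, 4 exons), often silenced by promoter methylation in tumors, had 43.2, 42.9, 35.6 and 32.0 FPKM with JIB-04, against 1.03, 0.854, 0.970 and 0.865 FPKM with vehicle. GADD45G thus stood at the 69.0th percentile of levels with JIB-04 and was barely measured in vehicle, at the 4.35th percentile. Its means were 38.4 ± 5.55 FPKM with JIB-04 and 0.931 ± 0.0866 FPKM with vehicle, 41.3 times apart, and its log2 fold change of 4.76 (standard error 0.11) ranked 23rd from the top of 17460 genes. A gene was tested if its 8 libraries averaged 1 FPKM or more, a level that GADD45G reached through the JIB-04 libraries only, so it could enter the test only by being higher there. The pseudocount holds its fold change down, and with 0.1 in place of 0.5 it was 5.22.

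**Figure D1:**
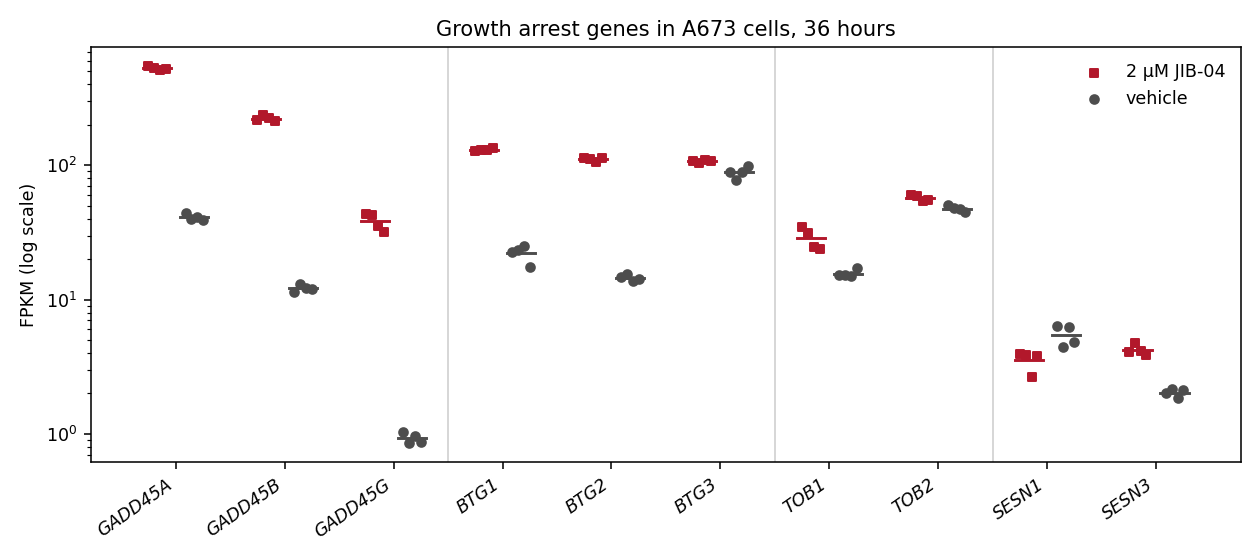
FPKM of the 10 genes in each library (log axis), with JIB-04 libraries as red squares left of vehicle libraries as gray circles, a bar at each group mean, and vertical lines between the GADD45, BTG, TOB and sestrin genes. The groups are separate for every gene, widely for the 3 GADD45 genes and for BTG1 and BTG2, narrowly for BTG3, TOB2 and SESN1, and SESN1 is the gene with JIB-04 below vehicle.

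Summed over the 3 GADD45 genes, the level was 788 ± 24.2 FPKM with JIB-04 (764 to 811) and 54.3 ± 1.65 FPKM with vehicle (52.3 to 56.3), 14.5 times higher. GADD45A made up most of the sum in both groups, at 66.9% ± 1.07 with JIB-04 and 75.8% ± 1.55 with vehicle. GADD45B took 28.3% ± 1.03 and 22.5% ± 1.65, and GADD45G 4.86% ± 0.561 and 1.71% ± 0.114. The shares of GADD45A did not overlap between groups (65.6% to 67.8% with JIB-04, 74.2% to 77.9% with vehicle), nor did those of GADD45B and GADD45G. The order GADD45A, GADD45B, GADD45G was the same in all 8 libraries.

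Among the BTG genes, BTG1 and BTG2 moved strongly and BTG3 little. BTG1 (ENSG00000133639, chr12:92140278-92145897, minus strand, 2 exons), an antiproliferative gene mutated in B-cell lymphoma, had 126.9, 130.0, 129.3 and 133.8 FPKM with JIB-04, against 22.5, 23.4, 25.1 and 17.4 FPKM with vehicle. The JIB-04 libraries lay close together (coefficient of variation 2.20%) and the vehicle libraries were spread more widely (15.0%), with replicate 4 lowest. The means were 130.0 ± 2.86 FPKM with JIB-04 and 22.1 ± 3.31 FPKM with vehicle, a 5.88-fold difference (log2 fold change 2.54, standard error 0.10). BTG2 (ENSG00000159388, chr1:203305491-203309602, plus strand, 2 exons), an immediate early gene, had 113.6, 110.7, 104.9 and 113.3 FPKM with JIB-04, against 14.8, 15.4, 13.8 and 14.2 FPKM with vehicle. It was 7.60 times higher with JIB-04, at 111 ± 4.03 FPKM against 14.6 ± 0.700 FPKM (log2 fold change 2.88, standard error 0.05).

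BTG3 (ENSG00000154640, chr21:17593653-17612947, minus strand, 5 exons) was the most abundant of the 10 genes in vehicle. It had 107.9, 103.8, 109.0 and 107.6 FPKM with JIB-04, against 89.3, 77.3, 88.7 and 98.3 FPKM with vehicle. The lowest JIB-04 library and the highest vehicle library were close to each other, and the means of 107 ± 2.27 and 88.4 ± 8.60 FPKM differed 1.21-fold (log2 fold change 0.28, standard error 0.07, 95% interval 0.13 to 0.43). Rescaling FPKM to TPM, where every library has the same total, moved the median over the genes tested on each scale up by 0.15 in log2, and BTG3 to 0.44. The antisense transcript BTG3-AS1 overlaps BTG3, at 7.77 FPKM with JIB-04 and 3.80 FPKM with vehicle. The libraries were directional, but the sources used here do not say whether strand was used in counting, so the part of BTG3-AS1 in the BTG3 values was not tested. BTG4, the remaining BTG gene, known from oocytes, was at 0.125 to 0.388 FPKM with JIB-04 and at 0 to 0.0800 FPKM with vehicle, below the level tested.

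TOB1 (ENSG00000141232, chr17:50862223-50867978, minus strand, 2 exons), named as a transducer of ERBB2, had 34.8, 31.5, 24.5 and 24.0 FPKM with JIB-04, against 15.2, 15.1, 15.0 and 17.1 FPKM with vehicle. JIB-04 replicates 1 and 2 were the higher pair, and all 4 were above the vehicle libraries. The means were 28.7 ± 5.31 FPKM with JIB-04 and 15.6 ± 0.989 FPKM with vehicle, a 1.84-fold difference (log2 fold change 0.85, standard error 0.12). GADD45G had the same order of JIB-04 libraries, with coefficients of variation of 14.5% for GADD45G and 18.5% for TOB1 in that group. The share of FPKM from mitochondrially encoded mRNA was 4.33%, 4.33%, 3.60% and 3.74% in the same libraries, higher in replicates 1 and 2 as well, and its part in these 2 genes was not tested. TOB2 (ENSG00000183864, chr22:41433492-41447023, minus strand, 2 exons), the close paralog, had 59.9, 58.9, 54.6 and 55.4 FPKM with JIB-04, against 50.3, 48.0, 47.1 and 44.8 FPKM with vehicle. Its groups were separate by a small margin, at 57.2 ± 2.58 and 47.6 ± 2.27 FPKM, 1.20 times apart (log2 fold change 0.26, standard error 0.05, 95% interval 0.14 to 0.39). On the TPM scale the fold change of TOB2 was 0.43.

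The BTG and TOB genes together summed to 434 ± 8.51 FPKM with JIB-04 (422 to 443) and 188 ± 6.10 FPKM with vehicle (179 to 192), 2.30 times higher. BTG1 and BTG2 took larger shares of it with JIB-04, and BTG3, TOB1 and TOB2 smaller ones. BTG1 and BTG2 made up 30.0% ± 0.984 and 25.5% ± 0.524 with JIB-04, against 11.8% ± 1.92 and 7.75% ± 0.596 with vehicle. BTG3 took 24.7% ± 0.826 with JIB-04 and 46.9% ± 3.33 with vehicle, and TOB2 took 13.2% ± 0.402 and 25.3% ± 1.52, in both cases without overlap between groups. The TOB1 share averaged 6.61% ± 1.12 with JIB-04 and 8.28% ± 0.485 with vehicle, and its highest JIB-04 library (7.85%) came close to its lowest vehicle library (7.89%).

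**Figure D2:**
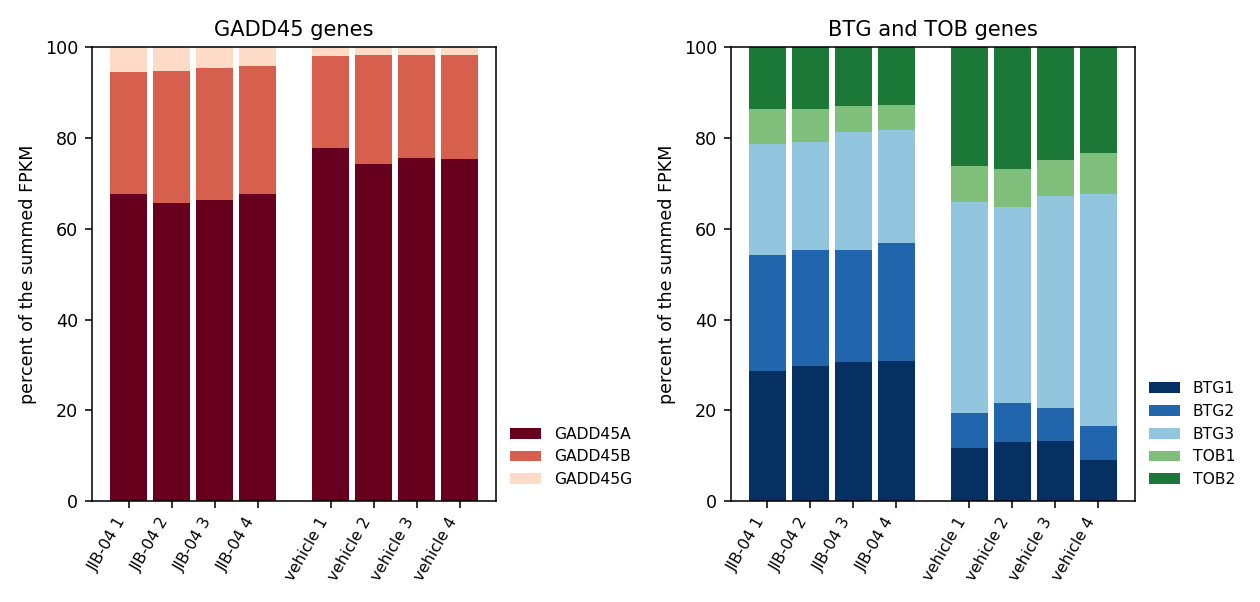
Percent of the summed FPKM of the GADD45 genes (left) and of the BTG and TOB genes (right) that each gene contributed in each library, with the 4 JIB-04 libraries left of the 4 vehicle libraries. GADD45A is the largest block of every bar on the left, while on the right BTG1 and BTG2 fill 30.0% and 25.5% of the bars with JIB-04 and 11.8% and 7.75% with vehicle.

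The sestrins differed in direction. SESN1 (ENSG00000080546, chr6:108986437-109094819, minus strand, 10 exons), a FOXO target, had 3.93, 3.89, 2.64 and 3.82 FPKM with JIB-04, against 6.38, 4.46, 6.22 and 4.86 FPKM with vehicle. All JIB-04 libraries were below all vehicle libraries, although vehicle replicates 2 and 4 came near them. The means were 3.57 ± 0.624 FPKM with JIB-04 and 5.48 ± 0.962 FPKM with vehicle, 0.651 of the vehicle level, and the log2 fold change was -0.56 (standard error 0.16, 95% interval -0.91 to -0.20). It was -0.44 without JIB-04 replicate 3, the lowest library, and -0.40 on the TPM scale. SESN3 (ENSG00000149212, chr11:95165513-95232541, minus strand, 10 exons), a FOXO target, had 4.06, 4.74, 4.15 and 3.88 FPKM with JIB-04, against 2.01, 2.15, 1.85 and 2.11 FPKM with vehicle. It was 2.07 times higher with JIB-04, at 4.21 ± 0.374 against 2.03 ± 0.136 FPKM (log2 fold change 0.89, standard error 0.10). SESN2, the remaining sestrin and a target of ATF4, rose to 30.3 ± 1.65 FPKM with JIB-04, against 7.79 ± 0.282 FPKM with vehicle (n = 4 each), with a log2 fold change of 1.89 ± 0.06 (SE) and an adjusted p of 1.42e-08 by limma. The ranges of SESN1 and SESN3 overlapped with JIB-04, while SESN1 was the higher of the pair in every vehicle library.

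The order of levels over the 10 genes was GADD45A, GADD45B, BTG1, BTG2, BTG3, TOB2, GADD45G, TOB1, SESN3 and SESN1 with JIB-04. In vehicle it was BTG3, TOB2, GADD45A, BTG1, TOB1, BTG2, GADD45B, SESN1, SESN3 and GADD45G. Neighbors whose ranges overlapped, and which therefore had no settled order, were BTG2 and BTG3, GADD45G and TOB1, and SESN3 and SESN1 with JIB-04, and TOB1 and BTG2 with vehicle. GADD45B stood 2nd with JIB-04 and 7th with vehicle, and BTG3 5th with JIB-04 and 1st with vehicle. FPKM are shares of the sequenced RNA, and in these bulk samples fewer cells of a type cannot be told apart from less RNA per cell.

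**Figure D3:**
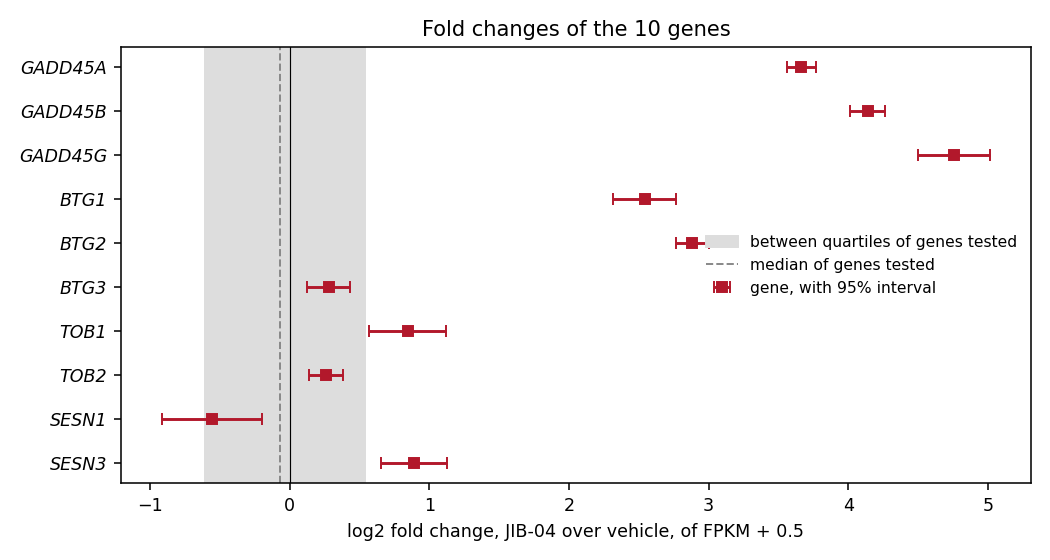
Log2 fold change of FPKM + 0.5, JIB-04 over vehicle, for each of the 10 genes, as squares with 95% intervals from limma, over the span between the quartiles of all 17460 genes tested (gray, -0.60 to 0.54) and their median (dashed, -0.07). GADD45A, GADD45B, GADD45G, BTG1 and BTG2 lie between 2.54 and 4.76, while BTG3, TOB2 and SESN1 lie inside the gray span.

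Sorted as the whole table was, by limma at a Benjamini-Hochberg adjusted p under 0.05 over all 17460 genes tested, 9 of the 10 genes fall among the genes higher with JIB-04 and 1, SESN1, among those lower. Of all genes tested 34.2% were higher, 38.0% were lower and 72.2% were either, and the placing of the 10 genes is not a test of them. A log2 fold change of at least 1 was reached by 5 of the 10 genes upward (GADD45A, GADD45B, GADD45G, BTG1 and BTG2), against 13.1% of all genes. The JIB-04 values were all above the vehicle values for 9 of the genes and all below for 1, against 31.9% and 35.4% of all genes. Since the genes were listed with this comparison known, nothing is read from any of these counts. The median log2 fold change was 1.72 over the 10 genes and -0.07 over all genes. By the same measure BTG2 ranked 237th, BTG1 357th, GADD45A 97th and GADD45B 53rd from the top.

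Facts of the libraries bear on these values. The FPKM of a library summed to 1175407 to 1237186 with JIB-04 and to 1346289 to 1370436 with vehicle, and mitochondrial mRNA took 3.60% to 4.33% and 9.60% to 10.2% of it. Scaling to TPM turned the balance to 6869 higher and 5289 lower of 16703 genes tested, from 5964 higher and 6640 lower of 17460 on FPKM. The filter on level was applied anew on TPM, so the 2 sets of genes differ. The direction of all 10 genes stayed as given. All 7 Ewing Sarcoma markers examined were expressed. With JIB-04, 1 of them (FLI1) was higher, 5 (CD99, NKX2-2, STEAP1, PRKCB and CCND1) were lower, and NR0B1 did not pass. That is 14.3% higher and 71.4% lower, against 34.2% and 38.0% of all genes tested. Of 12 markers of blood, endothelial, epithelial, neuronal and muscle cells, 2 (ITGAM and SNAP25) reached the level tested and were higher with JIB-04, ITGAM (2.39 and 0.295 FPKM) through the JIB-04 libraries only. The 12 summed to 18.4 to 21.4 FPKM with JIB-04 and 5.30 to 5.63 FPKM with vehicle, with MYOG at 0 in every library, and their part in the values of the 10 genes was not tested.

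The genes known to act on or with the 10 were then counted in the same fit, with all lists written when earlier results of these data were known. The lists share some genes, CDKN1A and DDIT3 among them, and none was tested as a set. Of 15 partners and targets of GADD45 proteins, 5 rose, 8 fell and 2 stayed short of the threshold, with a median log2 fold change of -0.37. That is 33.3% higher and 53.3% lower, against 34.2% and 38.0% of all genes tested. CDKN1A, which encodes p21, rose to 264 ± 27.4 FPKM with JIB-04, against 22.7 ± 2.89 FPKM with vehicle (log2 fold change 3.51, limma adjusted p = 7.17e-09). MAP2K3, a kinase that activates p38, averaged 87.5 ± 5.45 FPKM with JIB-04 and 35.2 ± 1.18 FPKM with vehicle (1.30, limma adjusted p = 5.52e-08). MAP2K6, the other main kinase of p38, fell to 5.32 ± 0.669 FPKM with JIB-04, against 12.3 ± 0.484 FPKM with vehicle (-1.14), as did the p38 genes MAPK14 (-0.29) and MAPK11 (-0.59), so the p38 arm did not move one way. TDG, the glycosylase with which GADD45A is linked in DNA demethylation, averaged 103 ± 5.46 and 39.8 ± 3.51 FPKM (1.36, limma adjusted p = 1.83e-07). CCNB1, cyclin B1, fell to 201 ± 13.6 FPKM with JIB-04, against 482 ± 30.4 FPKM with vehicle (-1.26, limma adjusted p = 1.22e-07). Its kinase CDK1 had 128 ± 5.03 FPKM with JIB-04 and 140 ± 22.0 FPKM with vehicle (-0.11), and MAP3K4 had 20.2 ± 6.50 and 25.6 ± 3.85 FPKM (-0.37), and neither passed.

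The deadenylase side of BTG and TOB moved in both directions. Of 18 CCR4-NOT and other deadenylation factors, 8 rose, 6 fell and 4 stayed short of the threshold, and the median log2 fold change was 0.04. Those higher made up 44.4% and those lower 33.3%, against 34.2% and 38.0% of all genes tested. The ubiquitin ligase CNOT4 was the member farthest up, at 56.5 ± 0.968 FPKM with JIB-04 and 20.6 ± 0.894 FPKM with vehicle (log2 fold change 1.43, limma adjusted p = 1.7e-08). PRMT1, the arginine methyltransferase that binds BTG1 and BTG2, was farthest down, at 254 ± 12.9 and 535 ± 11.2 FPKM (-1.08, limma adjusted p = 3.8e-08). CNOT9 (-0.47) and the poly(A)-binding protein gene PABPC4 (-0.60) fell too. BTG1 and BTG2, at 5.88 and 7.60 times their vehicle level, were listed with this comparison known, so they are not set against these factors.

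On the sestrin side, 19 of 20 genes of GATOR and AMPK complexes and their neighbors were tested. With JIB-04, 5 rose (SESN2 among them), 10 fell and 4 stayed short of the threshold, with a median of -0.26. These are 26.3% higher and 52.6% lower, against 34.2% and 38.0% of all genes tested. TSC1, a brake on mTORC1, rose to 47.8 ± 2.50 FPKM with JIB-04, against 17.2 ± 0.222 FPKM with vehicle (log2 fold change 1.44, limma adjusted p = 2.67e-08), while its partner TSC2 fell to 27.2 ± 2.79 FPKM, against 39.6 ± 1.75 FPKM (-0.54, limma adjusted p = 0.000141). RHEB, the GTPase that activates mTORC1 and that the TSC1 and TSC2 pair opposes, rose to 186 ± 7.32 FPKM against 103 ± 4.94 FPKM (0.85, limma adjusted p = 3.27e-07). PRKAG1, an AMPK subunit, fell to 34.8 ± 2.15 FPKM with JIB-04, against 65.0 ± 1.21 FPKM with vehicle (-0.89, limma adjusted p = 4.56e-07), and its paralog PRKAG2 rose to 27.8 ± 2.59 FPKM, against 10.7 ± 1.71 FPKM (1.34, limma adjusted p = 5.62e-06). The GATOR genes NPRL3 (-0.88), MIOS (-0.49), SEC13 (-0.40) and SEH1L (-0.33) were also among the 10 that fell. RPTOR (-0.63), PRKAA1 (-0.58), MTOR (-0.45) and PRKAB1 (-0.26) fell as well.

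Of 20 transcription factors known to act on genes of the set, 14 rose, 2 fell and 4 stayed short of the threshold, with a median log2 fold change of 0.72. That is 70% higher and 10% lower, against 34.2% and 38.0% of all genes tested. DDIT3 (CHOP), ATF3 and ATF4 belong to the integrated stress response, which can induce GADD45A and SESN2, and their part in the values here was not tested. DDIT3 was at 686 ± 7.49 FPKM with JIB-04 and 75.3 ± 4.28 FPKM with vehicle (3.18, limma adjusted p = 2.38e-10). ATF3 was at 122 ± 8.16 and 10.2 ± 1.24 FPKM (3.52, limma adjusted p = 3.05e-09), and ATF4 at 1239 ± 21.2 and 694 ± 24.4 FPKM (0.84, limma adjusted p = 4.35e-08). FOXO4 (2.35) and FOXO3 (0.98), which act on BTG1 and sestrin genes, rose, while FOXO1 had 2.63 ± 0.599 FPKM with JIB-04 and 2.04 ± 0.164 FPKM with vehicle and did not pass on FPKM (0.28) but did on TPM (0.40). NFYA, a subunit of the CCAAT-binding factor NF-Y, rose to 118 ± 2.59 FPKM with JIB-04, against 44.0 ± 2.00 FPKM with vehicle (1.42, limma adjusted p = 1.26e-08). ZNF350, a partner of BRCA1 in repression of GADD45A, rose by 2.66, and BRCA1 had 14.3 ± 0.687 FPKM with JIB-04 and 14.9 ± 1.26 FPKM with vehicle. Rises on the log2 scale were also called for KLF4 (2.02), EGR1 (1.85), TP63 (1.34), HIF1A (0.50), POU2F1 (0.45) and MYC (0.40). KLF4, at 2.22 ± 0.215 FPKM with JIB-04 and 0.174 ± 0.0655 FPKM with vehicle, reached the level tested through the JIB-04 libraries only, so it could be called only as higher, and on TPM it was not tested. Without it 13 of 19 factors rose and 2 fell, with a median of 0.60. SMAD3, a mediator of TGF-β signals to GADD45B, fell to 8.46 ± 1.11 FPKM with JIB-04, against 24.96 ± 0.508 FPKM with vehicle (-1.51), and TP73 fell by 0.76. CEBPB (-0.17) and the NF-κB subunit RELA (-0.12) did not pass. For BRCA1 and RELA the sign of the fold change turned on TPM, at 0.10 and 0.04, without passing there either.

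Of 20 further growth arrest and DNA damage inducible genes tested, 16 rose, 3 fell and 1 stayed short of the threshold, with a median log2 fold change of 1.40. Those higher made up 80% and those lower 15%, against 34.2% and 38.0% of all genes tested. The 3 that fell were GAS1 (log2 fold change -1.66), CDKN1B (-1.36) and GAS2L1 (-0.78), so the list did not move one way. Of the 16, CDKN1C, GAS6 and NUPR1 reached the level tested through the JIB-04 libraries only, which tilts the count and the median upward. Over the other 17 genes, a count added after the values were seen (as for KLF4), 13 rose and 3 fell, with a median of 1.26, and GAS2, at 0.167 ± 0.0613 FPKM with JIB-04 and 1.23 ± 0.251 FPKM with vehicle, was below the level tested. PPP1R15A, also called GADD34, which returns translation after stress by dephosphorylating eIF2α, reached 1019 ± 42.5 FPKM with JIB-04, against 36.1 ± 1.23 FPKM with vehicle (4.80, limma adjusted p = 4.22e-11), next to GADD45G in its fold change. DDIT3, also called GADD153 and given above, belongs to the same list. CCNG2, an atypical cyclin of arrested cells, averaged 44.0 ± 2.09 and 3.96 ± 0.290 FPKM (3.32), and KLF6, a growth-suppressing zinc finger factor, 253 ± 13.3 and 44.9 ± 1.28 FPKM (2.48).

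**Figure D4:**
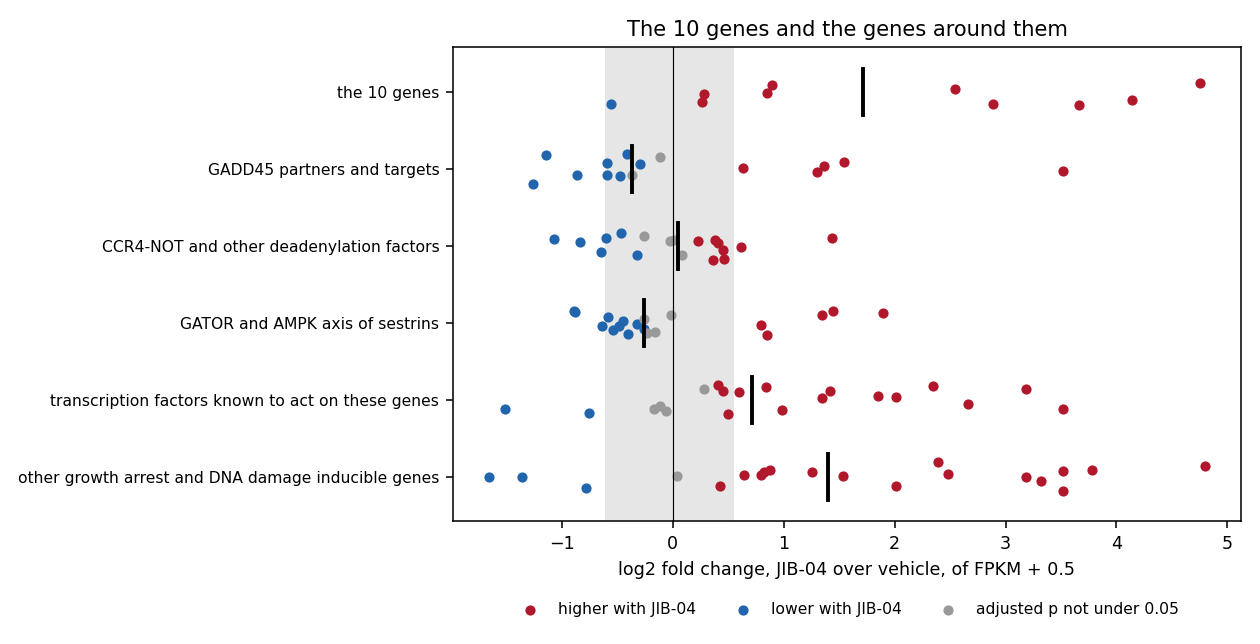
Log2 fold change of FPKM + 0.5, JIB-04 over vehicle, for the 10 genes (top row) and for the tested members of 5 lists of related genes, each dot a gene, red where higher, blue where lower and gray where the adjusted p was not under 0.05, with a black bar at the median and the quartile span of all genes in gray. The medians are 1.72 for the 10 genes, 1.40 for other growth arrest genes and 0.72 for transcription factors, while those of GADD45 partners (-0.37), CCR4-NOT factors (0.04) and the GATOR and AMPK genes (-0.26) lie inside the gray span.

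The gene structures were compared last, a look taken after the values were known. The 5 genes with a log2 fold change of at least 1 span 1543 (GADD45G), 2138 (GADD45B), 3278 (GADD45A), 4112 (BTG2) and 5620 (BTG1) bases. TOB1 spans 5756, TOB2 13532, BTG3 19295, SESN3 67029 and SESN1 108383 bases. With a pseudocount of 0.1 SESN3 also reached that fold change (1.01). The spans were not set beside those of all genes tested. ATTTA, the core of AU-rich elements that shorten mRNA half-life, was counted in the 3′ UTR of the principal transcript of each. Of 12150 genes tested with such a transcript, 69.5% held at least 1 copy and the median was 2. GADD45B and GADD45G held 0, GADD45A and BTG2 2 each, and BTG1 5 in a 3′ UTR of 3802 bases. Per kilobase this was 3.546 for GADD45A, 1.315 for BTG1 and 0.924 for BTG2, against a median of 1.645 over the 12150 genes. The part of ATTTA in the values was not tested. SESN3 held 29 copies in 7742 bases, BTG3 3, TOB1 4, TOB2 3 and SESN1 1. GC content ran from 37.1% in the SESN3 transcript to 63.9% in that of GADD45G, around a median of 48.7% over the same genes. Reads may also be shared with overlapping genes: LINC01619 lies on the strand of BTG1 and had 1.70 FPKM with JIB-04 and 0.0907 FPKM with vehicle, far below BTG1 in both groups.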

How the data were processed

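Total RNA was extracted with TRIzol from A673 cells treated for 36 hours with 2 μM JIB-04 or vehicle, 4 libraries each, and directional poly(A) libraries were sequenced. Per the submitters' processing notes and the methods, the authors aligned reads to GRCh38 with GSNAP, used SAMtools, and calculated the deposited FPKM with Cufflinks; the annotation release and the number of mapped reads are not given in the sources used here. Read depth is thus unknown, and errors come from the scatter of replicate libraries. Of 66095 entries, those of 117 repeated identifiers were summed, 33 date-like names were restored and 13 identifiers with placeholder values were left out. JIB-04 and vehicle were compared with limma 3.58.1 (R 4.3.3, variance trend) on log2 of FPKM + 0.5 in the 17460 genes whose 8 libraries averaged 1 FPKM or more; p-values were adjusted over all of them by Benjamini-Hochberg, and genes under 0.05 were called. The fit was tested on simulated data. On this scale the change of low genes is understated. The authors' analysis of variance of FPKM was run as an alternative, besides other pseudocounts (0.1, 1), filters (none, 5 FPKM), TPM, median-ratio scaling, ratios of means, a replicate block and leaving out each library. Sequences came from RefSeq, positions from GENCODE 29. The 10 genes and all lists were chosen with earlier results of these data known. Named were the 10 genes, up to 4 genes with the smallest adjusted p of each list, the 20 transcription factors, SESN2, BTG4 and CDKN1A, except that 1 gene and 1 list are not reported here; LINC01619, BTG3-AS1, ITGAM, SNAP25, MYOG, MAP2K6, MAPK14, MAPK11, CDK1, MAP3K4, TSC2, PRKAG2, CDKN1C, GAS6, NUPR1 and GAS2 were added after their values were seen. GAS1, CDKN1B and GAS2L1 were also added after their values were seen. Python 3.11.15 (pandas 2.3.3, matplotlib 3.10.9) was used for summaries and plots.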

Additional observations from a re-analysis of the deposited data

Results flagged for a closer look

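In 102 groups of 4 libraries (named genes, and the 2 sums of the set), Dixon's ratio, the gap of the highest or lowest library to its neighbor over the range, was above its 95% critical value in 8, where chance flags about 1 in 20 groups. TOB1 was at 17.1 FPKM in vehicle replicate 4, against 15.0 to 15.2 in the other vehicle libraries. SESN1 was at 2.64 FPKM in JIB-04 replicate 3, against 3.82 to 3.93 in the other JIB-04 libraries. TSC1 was at 16.9 FPKM in vehicle replicate 4 (17.3 to 17.4 in the others), a gap that is wide only because those agree so closely. ATF3 was at 12.05 FPKM in vehicle replicate 3 (9.52 to 9.59), FOXO1 at 1.80 FPKM in the same library (2.11 to 2.14), and EGR1 at 71.8 FPKM in vehicle replicate 1 (63.9 to 65.1). BTG4, near the lower end of detection, was at 0.388 FPKM in JIB-04 replicate 2 (0.125 to 0.159) and at 0.0800 FPKM in vehicle replicate 3, with 0 listed in the others.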

How the results depend on the processing

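The sign of each of the 10 fold changes was the same under every alternative that gave a value, which is no support for them since the genes were listed with this comparison known. At a mean of at least 5 FPKM, SESN1 and SESN3 were not tested, so the number of the 10 genes that were lower was 0 instead of 1, and 1 transcription factor was lower instead of 2, because fewer genes were tested. Log2 fold changes over the alternatives ranged from 3.64 to 3.82 for GADD45A, 4.09 to 4.28 for GADD45B, 4.34 to 5.37 for GADD45G, 2.43 to 2.70 for BTG1, 2.84 to 3.03 for BTG2, 0.22 to 0.44 for BTG3, 0.75 to 1.00 for TOB1, 0.24 to 0.43 for TOB2, -0.64 to -0.40 for SESN1 and 0.78 to 1.05 for SESN3. Leaving out each library in turn gave -0.64 to -0.44 for SESN1 and 0.22 to 0.33 for BTG3. Rescaled to TPM, the GADD45 sum was 651 with JIB-04 and 40.0 with vehicle, and the BTG and TOB sum 358 and 139, smaller by construction. Same-numbered libraries deviated together with correlations of -0.06 to 0.08, so the numbers were not taken to pair the samples, and a replicate block left 5900 genes higher and 6618 lower, with 9 and 1 of the 10 genes. The FPKM do not give the read depth, so the counting error of low genes (SESN1, SESN3, GADD45G in vehicle) is not known. With 4 libraries against 4, an exact permutation test of one gene cannot go below p = 0.0286.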
